A study of Mus musculus with 6 samples.

Results

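The 36 genes described here encode the machinery that builds the mitotic spindle, holds chromosomes to it and takes cells out of mitosis. They were chosen by gene symbol, and all 36 were among the 23494 genes of the deposited table. They were measured by RNA sequencing in 6 libraries labelled heart from wild type female C57BL/6 mice, 3 given vehicle and 3 given rMANF, the recombinant form of mesencephalic astrocyte-derived neurotrophic factor. Every mouse, vehicle mice included, carried a subcutaneous B16F10 tumour, a transplantable melanoma of the mouse. Phosphate-buffered saline was the vehicle, and rMANF was injected into the peritoneum at 2 µg/kg each day once tumours averaged about 60 mm3. Each group had 8 randomised mice, of which 3 per group were sequenced, and the sources used here do not give the ages of the mice. The labels call the 3 samples of a group biological replicates, and the vehicle columns carry names starting with IgG, while their treatment is labelled vehicle. The series as a whole concerns MANF and inflammation of the heart under immune checkpoint inhibitors, and the comparison asked what rMANF does to gene expression in tumour-bearing mice.

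Entry into mitosis is driven by Cdk1 bound to cyclins A and B. Kinetochores then assemble on centromeres and capture spindle microtubules, and the spindle checkpoint holds back the anaphase-promoting complex (APC/C), a ubiquitin ligase, until every chromosome is attached. The chromosomal passenger complex corrects faulty attachments, and destruction of cyclin B and securin by the APC/C ends mitosis. Most of these genes are transcribed mainly in G2 and mitosis, so their transcripts mark dividing cells, while adult heart muscle cells rarely divide.

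The libraries carried little heart muscle RNA, so these values go against the tissue label. The 16 heart muscle markers with rows summed to between 57.3 and 153 TPM (a share of each library corrected for transcript length), and the cardiac actin gene Actc1 reached at most 0.905 TPM. The libraries are therefore called labelled heart, and no other tissue is assigned to them. Macrophage markers summed to 3943 to 4526 TPM with vehicle and 2315 to 3272 TPM with rMANF, and T and NK cell markers to 62.9 to 147 and 30.3 to 58.0 TPM. For skeletal muscle markers the sum was 240, 1444 and 199 TPM across vehicle replicates 1, 2 and 3, against 149 to 169 TPM with rMANF. Endothelial markers ran to 148 to 181 TPM and 192 to 219 TPM. Fibroblast markers summed to 330 to 478 TPM with vehicle and 257 to 342 TPM with rMANF. Neutrophil markers summed to 213 TPM in vehicle replicate 1 and to 18.4 to 43.0 TPM in the other 5 libraries. The 4 melanocyte and melanoma markers with rows summed to 7.60 to 12.7 TPM, nearly all of it Mitf, and the pigment cell gene Pmel reached at most 0.341 TPM. No listed marker with a row was at 0 in all 6 libraries. The part of these cell types in the results below was not tested, and in such bulk samples fewer dividing cells and less mitotic RNA per cell cannot be told apart.

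Genes of this machinery often share 2 short promoter elements, a CCAAT box, bound by NF-Y, and the element TTTGAA close to the start site, which MuvB complexes bind. RefSeq promoter windows of GRCm38.p6, from 250 bases before to 50 bases after a start site, were found for 31 of the 36 members (32 windows, 2 of them for Prc1). Both motifs were searched on both strands, so TTTGAA includes TTCAAA and CCAAT includes ATTGG, and overlapping matches counted separately. TTTGAA was in the windows of 21 members (22 of 32 windows, 68.8%) and in 17.9% of all 32851 windows. It lay within 50 bases of the start site in 20 of the 32 windows (62.5%) and in 4.94% of all windows. CCAAT was in the windows of 24 members (25 of 32 windows, 78.1%, against 37.4% of all), and 18 windows held it at least 2 times (56.2%, against 11.7%). Both motifs together were found in 20 member windows (62.5%) and in 6.95% of all windows. The 5 members with neither in their window were Birc5, Mad2l1, Nuf2, Nusap1 and Pttg1. The last 25 bases of 29 of the 32 windows lay in a transcript of the gene in the annotation GENCODE M21. The Mad2l1 window ended upstream of the GENCODE start of that gene, so absence of both motifs there is uncertain. In the Aurka window these last 25 bases lay partly upstream of the GENCODE start, so its motif positions hold for the RefSeq start only. Ccna2, Aurkb, Incenp, Kif20a and Tpx2 had no window in the RefSeq table.

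The windows of the most abundant member, Ube2c, and of 5 members described below whose group values did not overlap are shown 5′ to 3′ on the strand of the gene, with TTTGAA and CCAAT matches of either strand in capitals. Ube2c, Cdc20 and Aurka hold CCAAT boxes and a TTTGAA within 50 bases of the start site. In Mki67 both motifs lie farther upstream, and in Birc5 and Nuf2 these letters are not in the window.
Ube2c (chr2:164769679-164769978, plus strand): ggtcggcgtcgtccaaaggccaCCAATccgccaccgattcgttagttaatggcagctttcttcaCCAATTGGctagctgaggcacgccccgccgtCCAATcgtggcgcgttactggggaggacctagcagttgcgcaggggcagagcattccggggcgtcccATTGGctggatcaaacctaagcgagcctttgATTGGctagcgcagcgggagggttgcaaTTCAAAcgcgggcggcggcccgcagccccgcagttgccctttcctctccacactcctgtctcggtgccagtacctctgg
Cdc20 (chr4:118437294-118437593, minus strand): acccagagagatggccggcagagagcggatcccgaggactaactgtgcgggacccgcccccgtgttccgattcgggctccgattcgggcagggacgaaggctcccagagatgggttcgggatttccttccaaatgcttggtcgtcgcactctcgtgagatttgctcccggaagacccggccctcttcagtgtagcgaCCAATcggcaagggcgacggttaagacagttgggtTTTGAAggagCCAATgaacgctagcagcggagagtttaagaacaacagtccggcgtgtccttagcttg
Aurka (chr2:172370521-172370820, minus strand): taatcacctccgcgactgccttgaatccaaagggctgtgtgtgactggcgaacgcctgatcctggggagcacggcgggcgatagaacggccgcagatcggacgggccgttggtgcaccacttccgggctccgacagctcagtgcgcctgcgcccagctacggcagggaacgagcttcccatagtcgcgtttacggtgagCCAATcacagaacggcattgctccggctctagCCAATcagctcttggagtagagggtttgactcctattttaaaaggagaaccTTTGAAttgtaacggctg
Mki67 (chr7:135716330-135716629, minus strand): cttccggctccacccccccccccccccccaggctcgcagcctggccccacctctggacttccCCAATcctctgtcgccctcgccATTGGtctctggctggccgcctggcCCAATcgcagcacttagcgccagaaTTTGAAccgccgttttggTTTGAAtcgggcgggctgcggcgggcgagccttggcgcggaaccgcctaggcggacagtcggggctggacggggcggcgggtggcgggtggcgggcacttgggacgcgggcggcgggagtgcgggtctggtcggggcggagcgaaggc
Birc5 (chr11:117848987-117849286, plus strand): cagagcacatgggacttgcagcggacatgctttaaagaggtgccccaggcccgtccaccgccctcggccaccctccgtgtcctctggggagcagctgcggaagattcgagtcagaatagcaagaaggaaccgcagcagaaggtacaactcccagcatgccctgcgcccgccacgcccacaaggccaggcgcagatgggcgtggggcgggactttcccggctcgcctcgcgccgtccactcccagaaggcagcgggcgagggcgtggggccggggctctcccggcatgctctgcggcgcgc
Nuf2 (chr1:169531415-169531714, minus strand): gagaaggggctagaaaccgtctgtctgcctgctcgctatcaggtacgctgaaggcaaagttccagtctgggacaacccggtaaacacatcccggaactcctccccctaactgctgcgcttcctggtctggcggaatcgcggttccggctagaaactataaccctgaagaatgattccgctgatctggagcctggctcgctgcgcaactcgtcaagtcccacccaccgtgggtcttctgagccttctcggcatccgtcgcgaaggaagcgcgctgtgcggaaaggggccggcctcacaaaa

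The members were detected in every library, most of them at moderate to high levels. Among the tested genes they ranged from percentile 33.1 (Ttk) to 97.9 (Ube2c). Their mean over the 6 libraries ran from 8.05 TPM for Ttk to 470 TPM for Ube2c, with a median of 55.8 TPM, which placed the median member at percentile 81.5 of the 12865 genes tested. All 36 passed the filter of a mean of at least 1 TPM. Together they took up 0.309% to 0.338% of each library. Their sum was 3382, 3171 and 3224 TPM in vehicle replicates 1, 2 and 3 and 3088, 3239 and 3168 TPM in rMANF replicates 1, 2 and 3. The groups overlapped in this sum, whose means were 3259 ± 110 and 3165 ± 75.2 TPM (SD, n = 3 each).

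**Figure D1:**
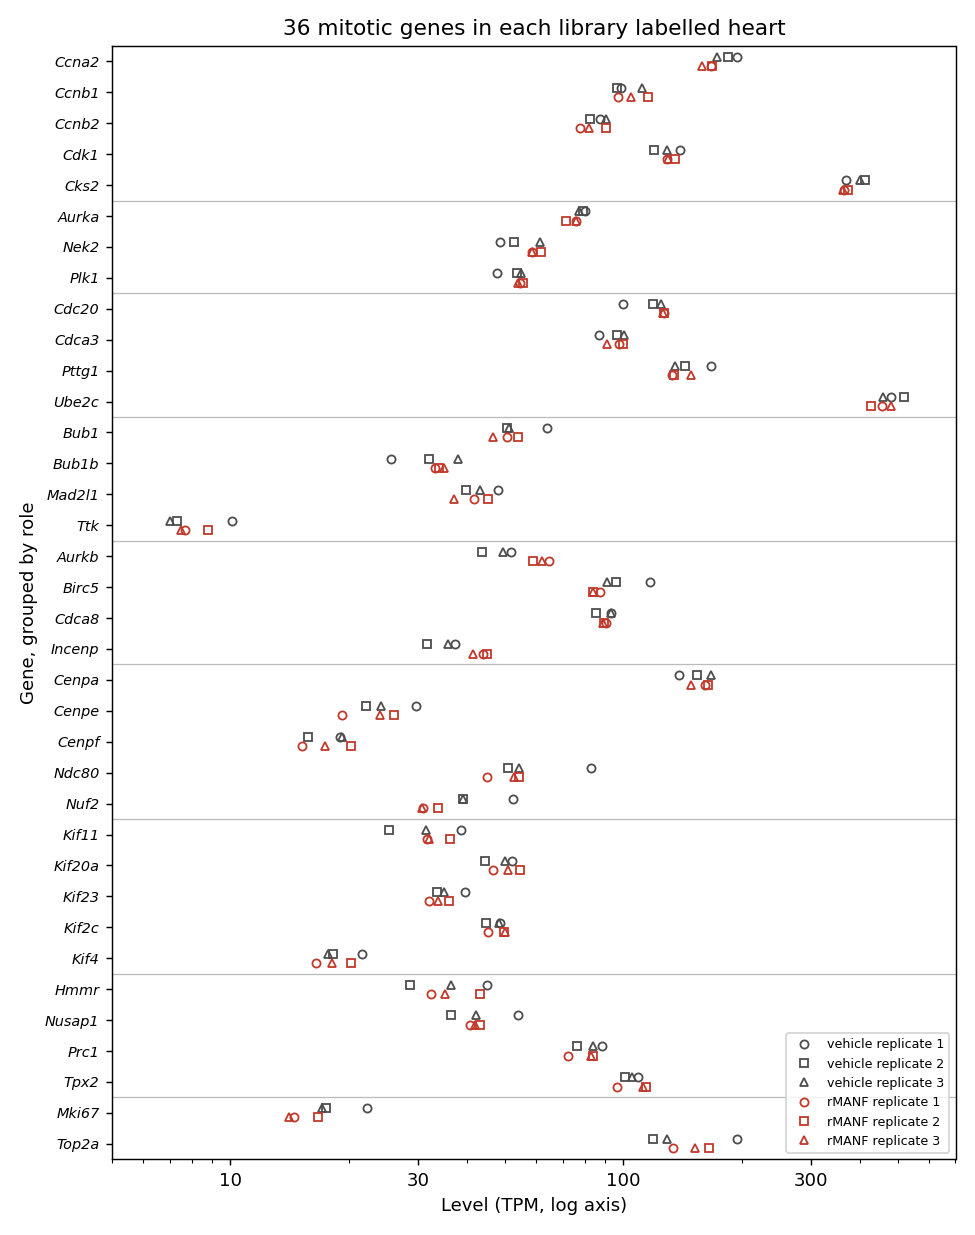
Level of each of the 36 genes in TPM (log axis) in the 3 vehicle libraries (grey) and the 3 rMANF libraries (red), 1 symbol per replicate number, with genes grouped by role. Ube2c and Cks2 stand highest and Ttk lowest, and for most genes the 2 groups occupy the same range.

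No member passed the test between rMANF and vehicle. Limma, a linear model over all 12865 tested genes with Benjamini-Hochberg adjustment, called 0 of 36 at an adjusted p of 0.05, as it called 0 of all genes (0%), and the lowest adjusted p among the members was 0.116. At an unadjusted p under 0.05 there were 4 members, Aurkb and Incenp above 0 and Nuf2 and Mki67 below (over all genes 13.9% lay above and 6.63% below). At an adjusted p under 0.10 limma called 0 members, against 1.94% of all genes higher and 0.793% lower. Differences are given as rMANF minus vehicle on log2(TPM + 1), on which 20 members lay below 0 and 16 above (over all tested genes 42.7% and 57.3%). Their median was -0.02, beside 0.04 for all tested genes. They were small, with 28 of 36 within 0.15 of 0.

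The 3 rMANF libraries were all lower than the 3 vehicle libraries for 5 members (13.9%), Nuf2, Mki67, Birc5, Ccna2 and Aurka, where the same held for 9.02% of all tested genes. They were all higher for 3 members (8.33%), Aurkb, Incenp and Cdc20, where it held for 18.9% of all tested genes. These counts depended on the scaling of the libraries: with median-of-ratios scaling they were 8 and 2 (over all genes 13.2% and 16.6%), and with quantile normalization 9 and 2 (over all genes 12.4% and 17.6%). With fewer libraries, where overlap is less likely by construction, the count above vehicle was 6 without vehicle replicate 1 (32.2% of all genes), 6 without vehicle replicate 3 (25.1%) and 5 without rMANF replicate 1 (24%).

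**Figure D2:**
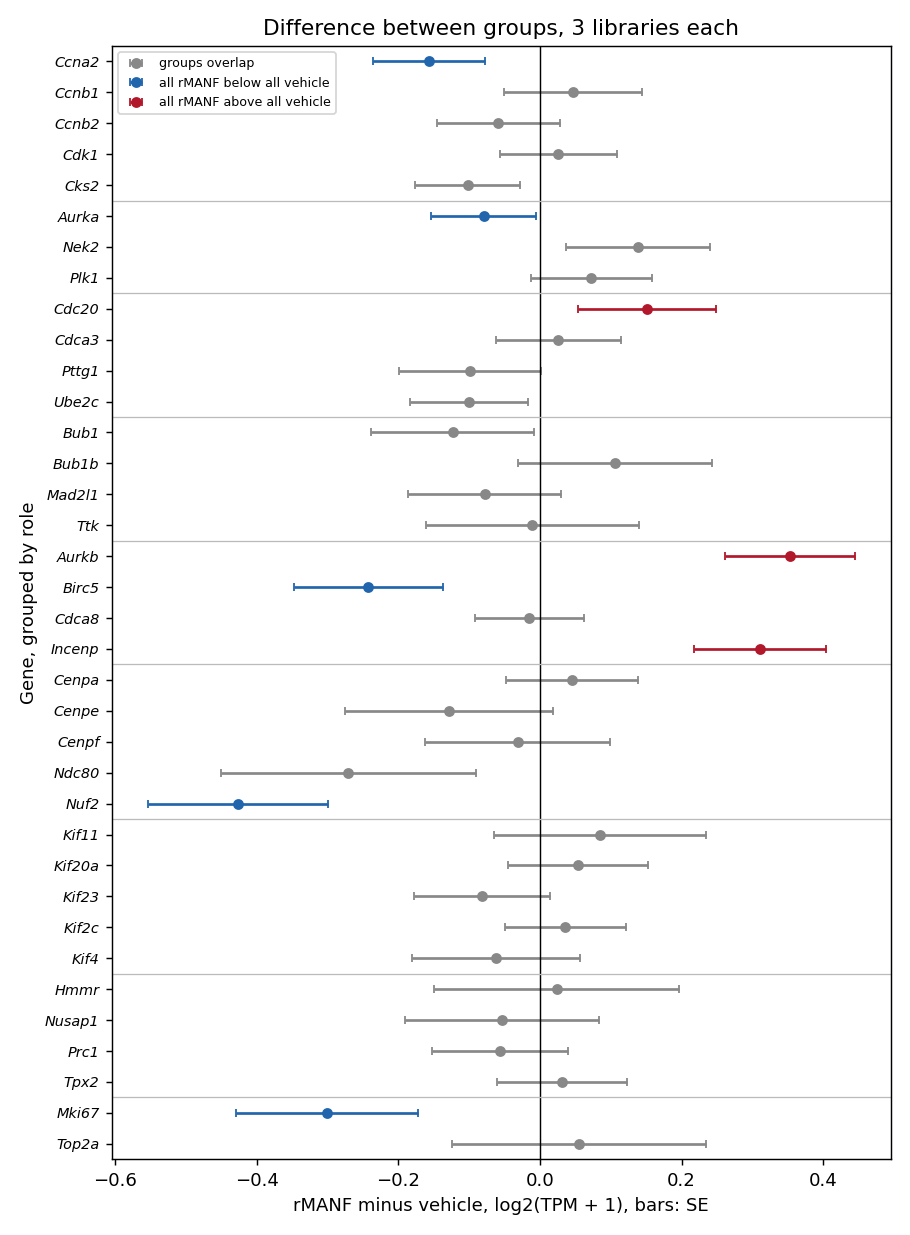
Difference between rMANF and vehicle for each of the 36 genes on the log2(TPM + 1) scale, with bars of 1 SE (limma, 3 libraries per group), grouped by role and coloured where the groups did not overlap (blue, rMANF lower, and red, rMANF higher). Aurkb and Incenp lie farthest to the right at 0.35 and 0.31 and Nuf2 farthest to the left at -0.43, and 28 genes lie within 0.15 of 0.

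Among the cyclins and their kinase, only Ccna2 separated the groups. Ccna2 encodes cyclin A2, which acts in S phase and at mitotic entry (chromosome 3, 36564865 to 36572150, GRCm38). It measured 195, 184 and 173 TPM in vehicle replicates 1, 2 and 3 and 167, 168 and 158 TPM in rMANF replicates 1, 2 and 3. The lowest vehicle library stood just above the highest rMANF library, and the log2 difference was -0.16 ± 0.08 (SE; limma adjusted p = 0.305; exact permutation p = 0.1, the smallest that 3 against 3 allows). Groups without overlap always give this permutation p, so here and below it only restates the separation. Cks2, a small subunit of Cdk1 complexes, measured 369, 413 and 399 TPM under vehicle and 364, 373 and 363 TPM under rMANF. Here vehicle replicate 1 lay inside the rMANF range, and the log2 difference was -0.10 ± 0.07 (limma adjusted p = 0.481). Cdk1 itself, the kinase (129 ± 9.72 and 132 ± 3.48 TPM), and the cyclin B genes Ccnb1 (102 ± 8.26 and 106 ± 9.31 TPM) and Ccnb2 (86.6 ± 3.93 and 83.2 ± 6.35 TPM) overlapped between groups (SD, n = 3 each). Their log2 differences were 0.03 ± 0.08, 0.05 ± 0.10 and -0.06 ± 0.09 (SE).

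Of the other mitotic kinases, Aurka, which matures centrosomes and spindle poles (chromosome 2, 172356190 to 172370535), measured 79.7, 78.9 and 77.2 TPM under vehicle and 76.0, 71.3 and 75.8 TPM under rMANF. The groups did not overlap, but the gap between them was narrow and the log2 difference was -0.08 ± 0.07 (limma adjusted p = 0.589; exact permutation p = 0.1). Nek2, which splits centrosomes, measured 48.6, 52.6 and 61.5 TPM under vehicle and 58.5, 61.6 and 58.4 TPM under rMANF, a log2 difference of 0.14 ± 0.10 (limma adjusted p = 0.485) that was 0.06 without vehicle replicate 1 and 0.23 without vehicle replicate 3. Vehicle replicate 3 lay among the rMANF libraries. The Polo kinase gene Plk1 stood at 52.1 ± 3.89 and 54.7 ± 0.765 TPM (SD, n = 3 each), and its groups overlapped.

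Of the 4 genes of the APC/C pathway and mitotic exit, 2 lay below 0 and 2 above. Ube2c, the ubiquitin-conjugating enzyme of the APC/C, measured 481, 518 and 459 TPM under vehicle and 454, 426 and 479 TPM under rMANF. The groups overlapped, and the log2 difference was -0.10 ± 0.08 (limma adjusted p = 0.537). Its exons overlap those of the skeletal muscle troponin gene Tnnc2 on the opposite strand, and the library kit does not mark strand. Tnnc2 stood at 12.7, 188 and 2.12 TPM in vehicle replicates 1, 2 and 3 and at 1.56, 0 and 0 TPM with rMANF, so the library highest in Ube2c was also highest in Tnnc2. When the skeletal muscle level, which includes Tnnc2, entered as covariate the Ube2c difference was -0.0054 ± 0.11 (SE). This covariate went with the group: all 16 muscle markers were lower with rMANF, 11 wholly below vehicle (9.02% of all tested genes). It also moved members that do not overlap Tnnc2, such as Aurkb (0.35 to 0.25) and Prc1 (-0.06 to -0.16). The part of Tnnc2 reads in the Ube2c values was not tested.

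Cdc20, the activator of the APC/C in mitosis (chromosome 4, 118432901 to 118437352), measured 99.9, 119 and 125 TPM under vehicle and 127, 127 and 126 TPM under rMANF. The rMANF libraries were nearly equal and vehicle replicate 3 stood just under them, and vehicle replicate 1 lay farthest below. The log2 difference was 0.15 ± 0.10 (limma adjusted p = 0.421; exact permutation p = 0.1) and 0.06 without vehicle replicate 1. Pttg1, which encodes securin, stood at 149 ± 16.6 and 139 ± 8.98 TPM, and Cdca3, a trigger of mitotic entry, at 94.4 ± 7.10 and 96.0 ± 4.74 TPM (SD, n = 3 each), both with overlap.

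None of the 4 spindle checkpoint genes separated the groups. Bub1, a checkpoint kinase at kinetochores, measured 64.0, 50.5 and 51.1 TPM under vehicle and 50.6, 53.9 and 46.6 TPM under rMANF. Vehicle replicate 1 was the only library apart from the rest, and the log2 difference of -0.12 ± 0.12 (limma adjusted p = 0.589) became -0.014 without it. Bub1b, which encodes the checkpoint protein BubR1, stood at 31.9 ± 6.15 and 34.0 ± 0.819 TPM, Mad2l1, the Cdc20 inhibitor Mad2, at 43.6 ± 4.08 and 41.3 ± 4.07 TPM, and the kinase gene Ttk at 8.12 ± 1.69 and 7.98 ± 0.690 TPM (SD, n = 3 each). Bub1b was the member with the lowest value of vehicle replicate 1 relative to its group, at 25.7 TPM against 32.1 and 37.9 TPM in vehicle replicates 2 and 3.

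The 4 subunits of the chromosomal passenger complex lay on both sides of 0. Aurkb, its kinase (chromosome 11, 69045647 to 69051664), measured 51.8, 43.7 and 49.2 TPM under vehicle and 64.5, 58.9 and 61.9 TPM under rMANF. Every rMANF library stood above every vehicle library, the mean was 28.1% higher, and the log2 difference was 0.35 ± 0.09 (limma adjusted p = 0.116; exact permutation p = 0.1). Incenp, the scaffold that activates the kinase (chromosome 19, 9872296 to 9899551), measured 37.3, 31.6 and 35.9 TPM under vehicle and 44.05, 44.9 and 41.5 TPM under rMANF. Here too the groups were apart, with a mean 24.5% higher and a log2 difference of 0.31 ± 0.09 (limma adjusted p = 0.138; exact permutation p = 0.1).

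Birc5, which encodes survivin, the subunit that reads the phosphorylated centromere (chromosome 11, 117849251 to 117855743), lay on the other side. It measured 117, 96.0 and 90.8 TPM under vehicle and 87.3, 83.6 and 83.9 TPM under rMANF. All vehicle libraries stood above all rMANF libraries, with vehicle replicate 1 farthest out. The log2 difference was -0.24 ± 0.11 (limma adjusted p = 0.245; exact permutation p = 0.1), and -0.14 without vehicle replicate 1. Cdca8, which encodes borealin, the partner of survivin, measured 93.1, 85.0 and 93.0 TPM under vehicle and 90.4, 89.1 and 88.6 TPM under rMANF, and its groups overlapped (log2 difference -0.01 ± 0.08, limma adjusted p = 0.937).

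Ratios of 2 genes within a library do not depend on a single scaling factor per library, and were computed for this complex after its values had been seen. The ratio of Aurkb to Birc5 was 0.443, 0.455 and 0.542 with vehicle and 0.739, 0.705 and 0.739 with rMANF. Against Cdca8, the subunit with little difference, Aurkb stood at 0.556, 0.514 and 0.530 with vehicle and at 0.714, 0.661 and 0.699 with rMANF. Incenp stood to Cdca8 at 0.401, 0.372 and 0.386 in the vehicle libraries and at 0.487, 0.504 and 0.468 in the rMANF libraries. Aurkb and Incenp were taken as genes wholly higher and Birc5 as one wholly lower, so that the separation of these ratios follows in part from that choice. Transcript GC content was 53.3% for Aurkb and 54.6% for Incenp but 48.3% for Birc5 and 50.7% for Cdca8. After removal of the GC trend of each library the differences were 0.30 for Aurkb, 0.23 for Incenp and -0.21 for Birc5.

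**Figure D3:**
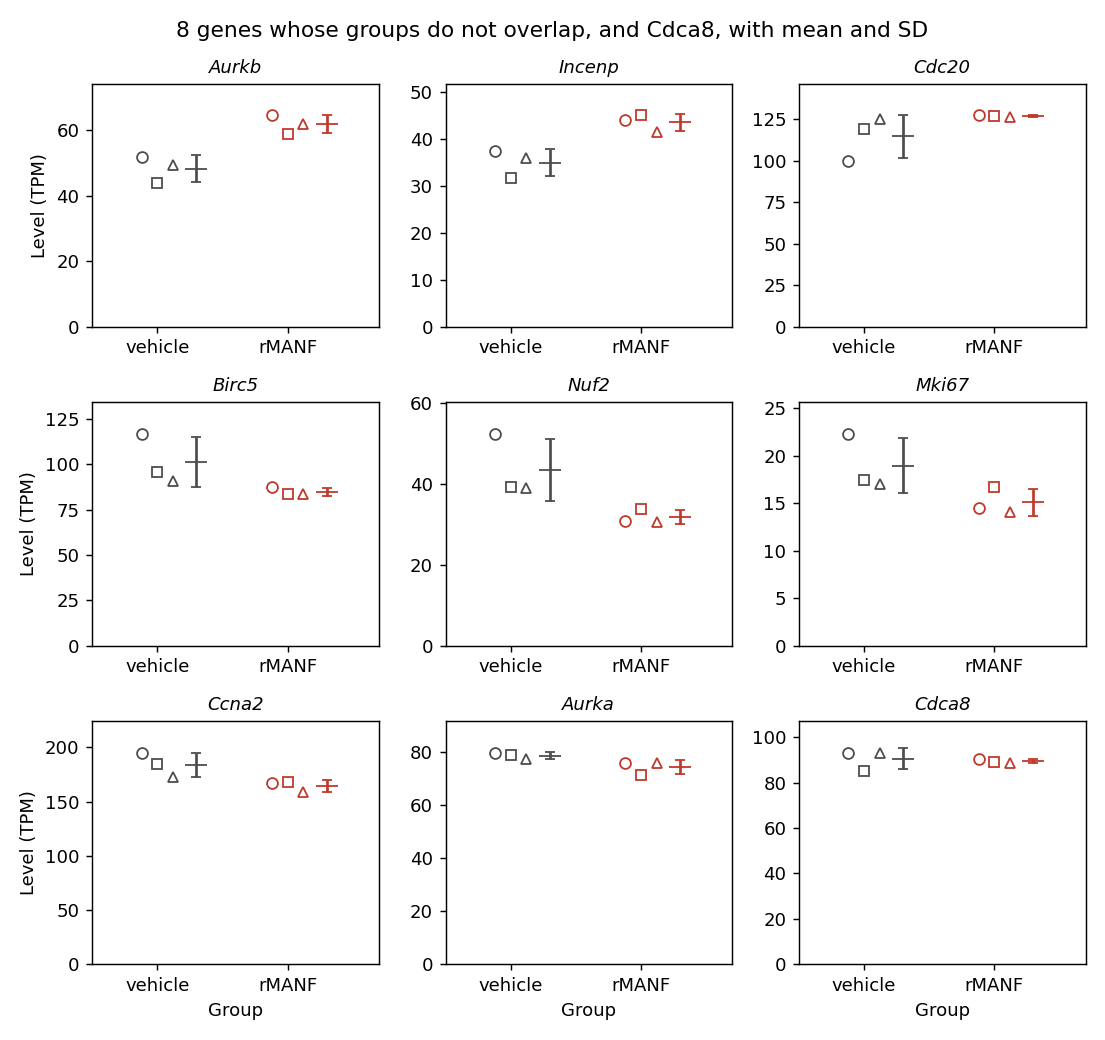
Level in TPM, from 0, of the 8 genes whose groups did not overlap and of Cdca8, with 1 symbol per replicate (circle, square and triangle for replicates 1, 2 and 3) and the mean and SD of 3 libraries beside them. Aurkb runs from 43.7 to 51.8 TPM with vehicle and from 58.9 to 64.5 TPM with rMANF, and vehicle replicate 1 is the highest library for Birc5, Nuf2, Mki67, Ccna2 and Aurka.

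At the kinetochore, Nuf2 had the largest difference of all 36 members. It encodes a subunit of the NDC80 complex, which binds microtubules (chromosome 1, 169497934 to 169531464), and measured 52.3, 39.1 and 39.0 TPM under vehicle and 30.9, 33.8 and 30.7 TPM under rMANF. The groups did not overlap, the rMANF mean was 26.8% below the vehicle mean, and the log2 difference was -0.43 ± 0.13 (limma adjusted p = 0.138; exact permutation p = 0.1). Without vehicle replicate 1 it was -0.29. Ndc80, its direct partner, measured 82.8, 50.9 and 54.1 TPM under vehicle and 45.0, 54.3 and 52.6 TPM under rMANF. Vehicle replicate 1 alone stood high, the other 5 libraries overlapped, and the log2 difference was -0.27 ± 0.18 (limma adjusted p = 0.438), or -0.055 without vehicle replicate 1.

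The other subunits of that complex are not members but bear on this result. Spc25 measured 69.6, 49.8 and 52.3 TPM under vehicle and 44.5, 45.2 and 46.2 TPM under rMANF, without overlap (log2 difference -0.32 ± 0.13, limma adjusted p = 0.222). Spc24 measured 23.8, 23.9 and 25.1 TPM under vehicle and 29.1, 25.6 and 23.1 TPM under rMANF, and overlapped (0.09 ± 0.10, limma adjusted p = 0.680). GC content was 42.2% for Nuf2, 43.6% for Ndc80, 43.2% for Spc25 and 54.6% for Spc24. With the GC trend of each library removed, Nuf2 stood at -0.34. The ratio of Nuf2 to Ndc80, also computed after the values had been seen, was 0.632, 0.768 and 0.720 in the vehicle libraries and 0.686, 0.623 and 0.582 in the rMANF libraries. These ranges overlapped. The ratio of Nuf2 to Spc25 was 0.752, 0.786 and 0.744 in the vehicle libraries and 0.695, 0.7485 and 0.663 in the rMANF libraries, also with overlap. The ratio of Nuf2 to Spc24 was 2.20, 1.64 and 1.55 in the vehicle libraries and 1.06, 1.32 and 1.32 in the rMANF libraries, without overlap. Nuf2 was taken as a gene wholly lower, so that separation follows in part from that choice.

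Cenpa, the histone H3 variant of centromeres, measured 139, 154 and 167 TPM under vehicle and 161, 165 and 148 TPM under rMANF. The ranges coincided (log2 difference 0.05 ± 0.09, limma adjusted p = 0.826). The kinetochore motor gene Cenpe stood at 25.4 ± 3.90 and 23.1 ± 3.50 TPM, and Cenpf, a large protein of the outer kinetochore, at 18.0 ± 1.95 and 17.6 ± 2.52 TPM (SD, n = 3 each), with overlap in both. The summed level of the 5 centromere and kinetochore genes was 303 ± 20.2 TPM for vehicle and 281 ± 15.3 TPM for rMANF (SD, n = 3 each), with overlap. Of the 5, 4 lay below 0, where 42.7% of all tested genes did. Without vehicle replicate 1 the differences were -0.29 for Nuf2, -0.055 for Ndc80, -0.025 for Cenpa, -0.013 for Cenpe and 0.0064 for Cenpf.

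The 5 kinesin genes stayed within the spread between libraries, with log2 differences from -0.08 to 0.08. Kif20a, a motor of the central spindle, measured 51.9, 44.3 and 49.97 TPM under vehicle and 46.5, 54.6 and 50.8 TPM under rMANF (0.05 ± 0.10, limma adjusted p = 0.806). Kif23, the motor of centralspindlin, measured 39.5, 33.5 and 34.9 TPM under vehicle and 32.0, 35.9 and 33.7 TPM under rMANF (-0.08 ± 0.10, limma adjusted p = 0.676, and -0.015 without vehicle replicate 1). In both genes the groups overlapped. Kif11, the motor that separates spindle poles, stood at 31.8 ± 6.64 and 33.4 ± 2.56 TPM, Kif2c, a microtubule depolymerase, at 47.1 ± 2.18 and 48.3 ± 2.78 TPM, and the chromokinesin gene Kif4 at 19.2 ± 2.17 and 18.3 ± 1.91 TPM (SD, n = 3 each).

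Differences were smaller still for the 4 proteins of spindle microtubules, from -0.06 to 0.03. Tpx2, the activator of Aurora A at spindle microtubules, measured 109, 101 and 105 TPM under vehicle and 96.3, 114 and 112 TPM under rMANF (0.03 ± 0.09, limma adjusted p = 0.885). Prc1, which bundles the central spindle, measured 88.3, 76.2 and 83.6 TPM under vehicle and 72.3, 83.7 and 82.5 TPM under rMANF (-0.06 ± 0.10, limma adjusted p = 0.784). In both, rMANF replicate 1 was the lowest library and the other rMANF libraries lay within or above the vehicle range. The microtubule-binding protein genes Nusap1 and Hmmr stood at 44.1 ± 8.83 and 42.0 ± 1.26 TPM and at 36.7 ± 8.16 and 36.9 ± 5.58 TPM (SD, n = 3 each).

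The last pair act on chromosomes. Mki67 encodes Ki-67, which coats mitotic chromosomes and is a common marker of proliferation (chromosome 7, 135689784 to 135716361), and measured 22.3, 17.5 and 17.1 TPM under vehicle and 14.5, 16.7 and 14.1 TPM under rMANF. The groups were apart by a narrow margin, and the log2 difference was -0.30 ± 0.13 (limma adjusted p = 0.238; exact permutation p = 0.1), or -0.18 without vehicle replicate 1. Top2a, topoisomerase II alpha, which untangles sister chromosomes, measured 194, 119 and 129 TPM under vehicle and 134, 165 and 152 TPM under rMANF. Its vehicle libraries held both the highest and the lowest values, so that the log2 difference of 0.06 ± 0.18 (limma adjusted p = 0.896) was 0.27 without vehicle replicate 1 and -0.081 without vehicle replicate 2.

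Vehicle replicate 1 stood apart for many members. It was the highest of the 6 libraries for 20 of the 36 members, where it was highest for 33.0% of all tested genes. The lowest library was vehicle replicate 2 for 11 members (38.1% of all tested genes), rMANF replicate 1 for 9 (9.99%), vehicle replicate 1 for 6 (17.8%) and rMANF replicate 3 for 6 (19.7%). Spread was wider with vehicle: the SD of log2 levels was larger among the vehicle than among the rMANF libraries for 27 of 36 members and for 70.2% of all tested genes. Ndc80 and Top2a had the largest excess in vehicle replicate 1, 0.65 and 0.64 on the log2 scale above the mean of the other vehicle libraries, followed by Hmmr at 0.47, Nusap1 at 0.45, and Ttk and Kif11 at 0.44. Bub1b, Cdc20 and Nek2 lay lowest there, at -0.43, -0.29 and -0.22.

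**Figure D4:**
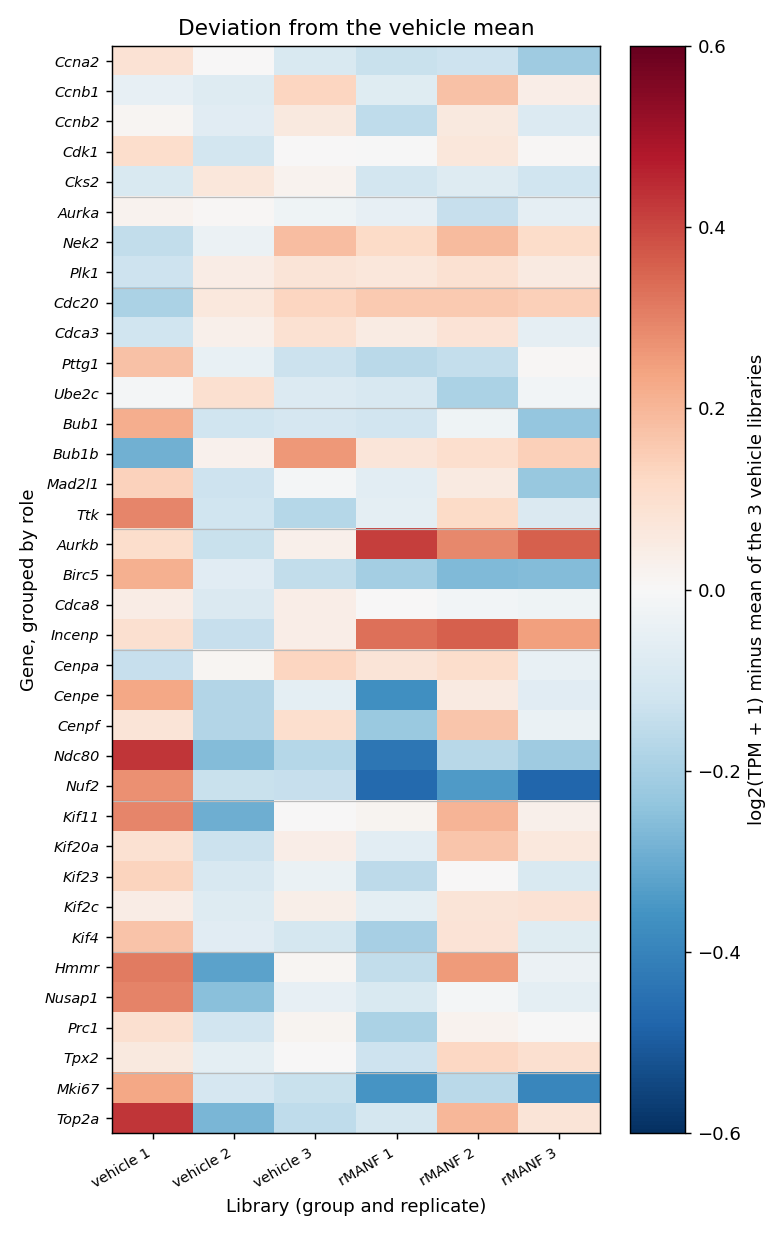
Deviation of each gene in each library from the mean of the 3 vehicle libraries, in log2(TPM + 1), red above and blue below, with genes grouped by role. The first column, vehicle replicate 1, is the reddest for Ndc80 and Top2a and blue for Bub1b, Cdc20 and Nek2, while Aurkb and Incenp are red and Nuf2, Birc5 and Mki67 blue in all 3 rMANF columns.

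GC content of the transcripts went with both differences. It ran from 40.6% in Bub1 to 56.1% in Plk1 over the members, with a median of 47.2% against 50.1% for all tested genes. Across the 36 members the excess in vehicle replicate 1 had a Spearman rho of -0.70 (Pearson r -0.66) with GC content, and over 12828 tested genes with GC content rho was -0.42. The difference between rMANF and vehicle had a rho of 0.42 (r 0.48) with GC content across members and 0.39 across all tested genes. The points share the same 6 libraries and are not independent. Vehicle replicate 1 also enters both differences, with opposite signs, so their relations to GC content are partly linked by construction. These values are descriptions, and the part of GC content and of vehicle replicate 1 in the differences was not tested. Of 6 members with a GC content of at least 53%, 5 had a difference above 0, and of 11 members under 44%, 8 had one below 0. Over all tested genes of any GC content, 57.3% lay above 0 and 42.7% below. Shares of all genes within these 2 GC ranges were not computed, and the member counts depend on where the ranges end. With the GC trend of each library removed, 4 members lay wholly below vehicle and 4 wholly above (10.4% and 17.7% of all tested genes), and the median difference of the members was 0.01.

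**Figure D5:**
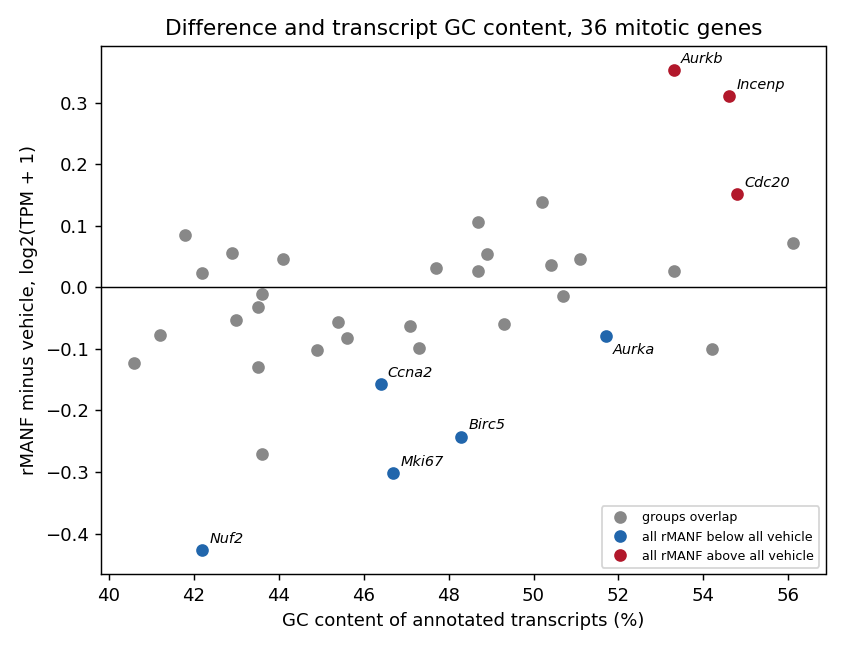
Difference between rMANF and vehicle on log2(TPM + 1) against the GC content of the annotated transcripts, 1 point per gene, with the genes named whose groups did not overlap. Aurkb, Incenp and Cdc20 lie at the GC-rich end above 0 and Nuf2 at the GC-poor end below 0.

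Other genes of mitosis, 136 with rows in 8 further lists, showed no common direction. Limma called 0 of them at an adjusted p of 0.05, 9 (6.62%) lay wholly below and 24 (17.6%) wholly above vehicle, close to the shares of 9.02% and 18.9% over all tested genes. Their median log2 difference was 0.01. The condensin subunit gene Ncapd2 measured 46.6, 43.0 and 50.6 TPM under vehicle and 62.1, 63.0 and 60.9 TPM under rMANF, and was the only one of the 136 with an adjusted p under 0.10 (0.40 ± 0.09, limma adjusted p = 0.0953). Fzr1, the APC/C activator that takes over from Cdc20 late in mitosis, stood at 39.6 ± 3.92 and 52.5 ± 1.90 TPM, and Cenpb, a centromere DNA-binding protein gene, at 43.2 ± 6.73 and 58.9 ± 2.46 TPM (SD, n = 3 each). Cenpk, an inner kinetochore gene, and Ckap2, a spindle protein gene, lay below at 22.9 ± 7.44 and 15.1 ± 1.13 TPM and 54.0 ± 6.30 and 43.4 ± 2.61 TPM. None of these 4 passed at 0.10 (limma adjusted p = 0.103, 0.121, 0.190 and 0.169).

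Of 21 mitotic entry and transcription genes, 7 lay wholly above vehicle, where 18.9% of all tested genes did. These included Wee1, the kinase that restrains Cdk1 (15.7 ± 1.91 and 21.8 ± 2.54 TPM, SD, n = 3 each; limma adjusted p = 0.129). Among 25 genes of replication licensing and S phase, 5 lay wholly above and 2 wholly below (18.9% and 9.02% of all tested genes). Mcm5, of the replicative helicase, measured 49.97, 55.6 and 56.6 TPM under vehicle and 73.5, 72.3 and 70.9 TPM under rMANF (0.41 ± 0.08, limma adjusted p = 0.0893). It was 1 of 2 genes of this list with an adjusted p under 0.10 (over all tested genes 1.94% higher and 0.793% lower). Of the cell cycle inhibitors and pocket proteins, 10 of 12 were tested and 2 lay wholly above vehicle (18.9% of all tested genes), with a median of 0.08. Cdkn1a, which encodes the inhibitor p21, overlapped between groups at 86.6 ± 1.11 and 80.0 ± 13.9 TPM.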

How the data were processed

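RNA sequencing of 6 mouse samples labelled heart was analysed, 3 vehicle and 3 rMANF, grouped by their titles. Per the labels' protocols, QIAzol served for RNA extraction and Nextera XT, a kit that keeps no strand information, for libraries. The tools named in the submitters' processing notes are Salmon 0.14.1, HTSeq 0.11.0, fastp and cutadapt, with build mm10, and the sources used here do not state their roles, the annotation or filters. The authors deposited log2 TPM per gene and library, and a value of -9 was read as 0 TPM. TPM keeps no record of read number, so depth is unknown and no counting interval was computed. The table held 0 columns of other samples.

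Levels are TPM, and differences are on log2(TPM + 1), where changes of low genes appear smaller than they are. Testing covered the 12865 genes averaging at least 1 TPM and used limma 3.58.1 in R 4.3.3 (empirical Bayes with a mean trend, two-sided, Benjamini-Hochberg adjusted over all tested genes). Exact permutation tests over the 20 assignments of 3 against 3 are two-sided. The procedure was tested on simulated data, where it recovered 0% of changed genes at a log2 change of 0.5, 71.7% at 1 and 94.1% at 2. The 200 changed genes were drawn from all tested genes, with independent noise per gene. Members varied less, with a median SD of log2 levels of 0.133 with vehicle and 0.084 with rMANF. Over all tested genes these were 0.175 and 0.111, so the rates need not hold for the members. All member differences were smaller than 0.5 in size, the largest being -0.43 for Nuf2. With 3 libraries per group, the lack of called members cannot exclude differences of this size. Limma p-values set a difference against the spread between these samples, moderated over all tested genes. Permutation p-values rank the observed grouping among the 20 assignments. The members and lists were chosen with earlier results of these data known. Members given in every library were, per role, that of smallest p and that of highest mean TPM, and those whose groups did not overlap. Ndc80, Cdca8 and the subunits Spc24 and Spc25 were added after their values had been seen. Gene positions, transcript GC content (99.7% of tested genes) and exon overlaps were taken from GENCODE M21, which uses GRCm38 (mm10). Besides Ube2c, 9 further members have exons overlapping another gene on the opposite strand, among them Ccna2, Cdc20, Cdca8, Kif20a, Nek2 and Prc1, and their reads cannot be told apart there. Alternatives covered pseudocount, filter, scaling, variance model, library weights, replicate block, GC trend, muscle covariate and left-out libraries.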

Additional observations from a re-analysis of the deposited data

How the results depend on the processing

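Limma called 0 members in the reported fit and under 20 of 21 alternatives, and 1, Aurkb, with library weights (adjusted p = 0.0373, log2 difference 0.35, where over its alternatives the adjusted p ran from 0.0373 to 0.735). With library weights 5.73% of all genes were called, so 1 of 36 members is no more than the background. At an adjusted p of 0.10 it called 1 member lower, Nuf2, with median-of-ratios scaling (1.32% of all genes lower), quantile normalization (1.19%) and library weights (4.62%). It called 1 higher, Aurkb, with a filter at 5 TPM (4.78% of all genes higher), and 2, Aurkb and Incenp, with library weights (9.83%). With 1 library left out the count at 0.10 ran from 0 to 0 lower and from 0 to 2 higher, the 2 being Aurkb and Incenp without vehicle replicate 1 (6.66% of all genes). Members wholly below vehicle numbered 8 with median-of-ratios scaling (13.2% of all genes), 9 with quantile normalization (12.4%) and 10 without vehicle replicates 1 and 2 together (22.2%), where 6 lay wholly above (37.8%). With 1 library left out these counts ran from 5 to 7 below (10.6% to 15% of all genes) and from 3 to 6 above (20.7% to 32.2%). The median difference of the members ran from -0.07 to 0.01 with 1 library left out, and the log2 ratio of their sums from -0.06 to -0.01. The median was -0.09 with the muscle covariate, and the ratio -0.08 with median-of-ratios scaling. Each of these values lay less than 1 SD between replicates (0.076 for the median and 0.042 for the ratio) from the reported value of -0.02 or -0.04.

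Of the 36 members 15 kept the sign of their difference under all 21 alternatives and 21 did not, none of the latter with a difference above 0.139 in size. Among the members given in every library, the sign turned for Cenpa when libraries were weighted (-0.047), and when vehicle replicates 1 and 2 were both left out for Cenpa (-0.084) and Nek2 (-0.046). It turned for Kif20a with quantile normalization (-0.016), for Tpx2 with median-of-ratios scaling (-0.0079), and with the muscle covariate for Kif20a (-0.069), Tpx2 (-0.030) and Top2a (-0.12). Cdca8 turned to 0.0071 without vehicle replicate 1 and 0.0061 without vehicle replicate 3. Prc1 turned to 0.0010 with the GC trend removed, with or without the replicate block. With 1 library left out Cenpa ran from -0.025 to 0.11, Kif20a from -0.012 to 0.11, Tpx2 from -0.014 to 0.11, Prc1 from -0.11 to 0.0098 and Top2a from -0.081 to 0.27. The causes were not tested. The titles of same-numbered libraries of the 2 groups share only a replicate number. Deviations of these libraries correlated at -0.07, 0.03 and 0.05 for replicates 1, 2 and 3 across genes. Unlike-numbered pairs ran from -0.148 to 0.12, so these values cannot exclude a shared handling. With the replicate number as a block 0 members were called, and the adjusted p was 0.196 for Aurkb, 0.263 for Incenp and 0.213 for Nuf2. Scalings moved the median of all tested genes by less than 0.1. Depth is unknown and 3 libraries per group limit the precision.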
